A study of Zea mays with 8 samples.

Results

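Phenylalanine ammonia-lyase (PAL) expression was examined in maize leaves through 8 gene identifiers listed as PAL genes, of 44135 in the deposited table. They are Zm00001d017274, Zm00001d017275, Zm00001d017276, Zm00001d017279, Zm00001d003015, Zm00001d003016, Zm00001d033286 and Zm00001d051161, of the B73 RefGen_v4 genome build. The table gives identifiers without names or positions, so membership of the family rests on that list. All plants were Zea mays cultivar Golden Queen, 14 d old and at stage V-3, and the emerging leaf 4 was sampled 24 h after treatment. The SLB group, 4 libraries, received a suspension of spores, and the Control group, 4 libraries, received 0.1% Tween 20 in water. In the study, SLB abbreviates southern leaf blight, which the fungus Cochliobolus heterostrophus causes on maize leaves. The comparison asks which copies of the family carry expression in each group and how their sum differs. The genome build is that of the inbred line B73 and not of Golden Queen, and what this does to the values of single copies was not tested.

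PAL removes the amino group of phenylalanine to give cinnamic acid, the entry step of phenylpropanoid metabolism. In grasses some PAL enzymes also accept tyrosine. The pathway feeds lignin, flavonoids, hydroxycinnamic acids of the cell wall and, in part, salicylic acid, and PAL transcripts are a widely used marker of the response of leaves to fungi and wounding. Plants carry several PAL genes that encode very similar proteins. The sources used here do not assign separate roles to the 8 copies.

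Values are FPKM, fragment numbers divided by transcript length and by the mapped fragments of a library, which allows levels of different genes to be set side by side. The FPKM of all genes summed to 728937 ± 19929 (SD, n = 4) in the SLB group against 1770918 ± 289130 (SD, n = 4) in controls, so each comparison between groups carries a difference in scale. Differences were tested with limma on log2(FPKM + 1) across the 19407 genes that reached 1 FPKM in 4 or more libraries. Fold changes below are on that scale, and the median over all tested genes was 0.69. Sequencing depth is unknown. In whole leaves, fewer cells of a type and less RNA per cell cannot be told apart. The marker lists for leaf tissues matched no identifier, so the labelled tissue was not checked.

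Of the 8 copies, 6 were higher in SLB leaves, 1 was near 1 FPKM in both groups and 1 was listed at 0 throughout. The summed level of the family was 1793 ± 461 FPKM (SD, n = 4) in the SLB group against 129 ± 45.6 FPKM (SD, n = 4) in controls, a ratio of 13.9. In SLB replicates 1 to 4 the sum was 2015, 1590, 2306 and 1260 FPKM. In control replicates 1 to 4 it was 103, 195, 120 and 96.2 FPKM. Every SLB library stood above every control, and control replicate 2 was the highest control. No test was made on the sum, since the copies were chosen with earlier results known. The same limit bears on the limma p-values and the counts of copies given below.

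The copies tested numbered 7, and 6 of them rose at an adjusted p of 0.05 in limma, where 56.0% of all tested genes rose. In limma 0 of the 7 fell, also at an unadjusted p under 0.05, where 24.6% of all tested genes fell at an adjusted p of 0.05. The background moved with the scaling: median-ratio scaling gave 40.0% of tested genes rising and 38.4% falling, and 74.5% rose and 12.1% fell with equal totals. At least 4-fold rises were called for 6 members and for 15.6% of tested genes. At least 8-fold rises were called for 4 members and for 5.46% of tested genes. Both counts are for the deposited scale: after median-ratio scaling Zm00001d017274 and Zm00001d017275 were at 2.74 and 2.70 on the log2 scale, under 8-fold, and Zm00001d051161 at 1.60, under 4-fold. The median log2 fold change was 3.52 over the 7 members tested and 0.69 over all tested genes. Of the 7, Zm00001d003015 and Zm00001d017276 reached the filter with the help of the SLB libraries, since fewer than 4 of their control values were at 1 FPKM or more. The same holds for Zm00001d003016, which reached 1 FPKM in 3 SLB and 2 control libraries. In 6 members all SLB libraries lay above all controls, as in 53.3% of tested genes.

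**Figure D1:**
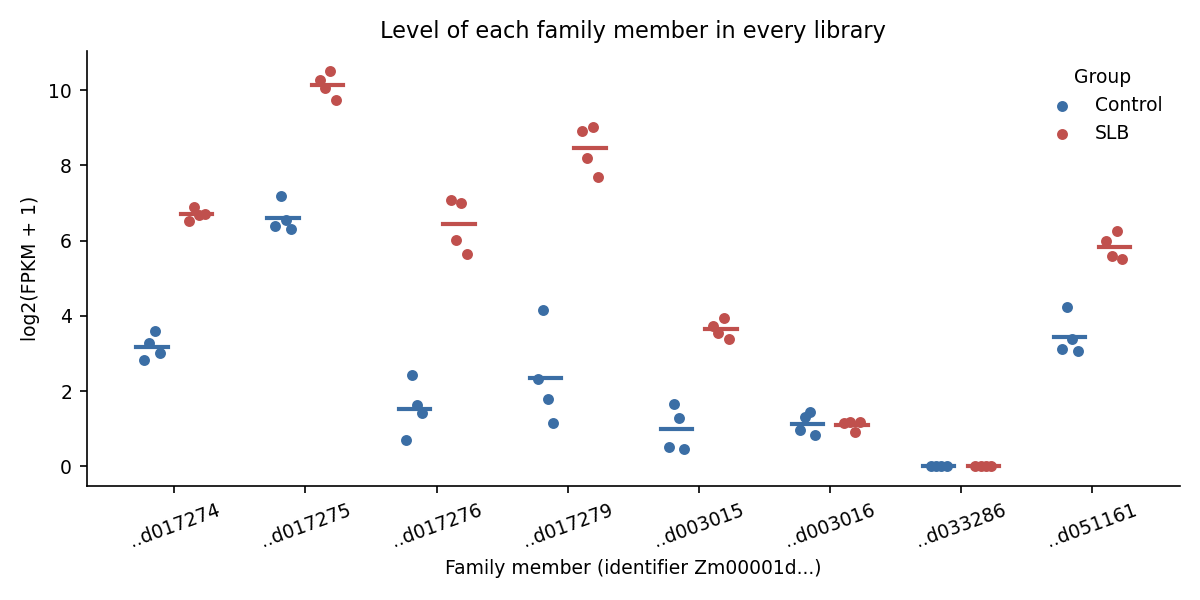
Level of each copy as log2(FPKM + 1), with 1 point per library and a bar at the group mean, controls in blue and SLB libraries in red. In it 6 copies separate without overlap, Zm00001d003016 overlaps and Zm00001d033286 stays at 0.

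Zm00001d017275 carried most of the expression in both groups. Its level was 1230, 1055, 1467 and 846 FPKM in SLB replicates 1 to 4. In control replicates 1 to 4 it was 83.4, 144, 92.1 and 77.8 FPKM. The lowest SLB value was 5.87 times the highest control value. In limma it rose by 3.53 on the log2 scale (SE 0.23, adjusted p = 8.21e-07), and the ratio of group means was 11.6. By mean FPKM it ranked 49 in SLB libraries and 1371 in controls among all listed genes. It was the highest copy in each of the 8 libraries.

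Zm00001d017279 had the widest change among the copies and stood second in SLB leaves. It was at 483, 295, 519 and 207 FPKM in SLB replicates 1 to 4. In control replicates 1 to 4 it was at 4.00, 17.0, 2.48 and 1.22 FPKM. Control replicate 2 was thus well above the other controls, though still below all SLB libraries. In limma it rose by 6.10 on the log2 scale (SE 0.59, limma adjusted p = 8.33e-06), and 96 of the tested genes rose by more. Without control replicate 2 it was 6.70, and the ratio of means went from 60.9 to 146. Its rank by mean FPKM was 234 in SLB libraries and 9268 in controls.

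Zm00001d017276 had the second widest change with the deposited values, while after quantile normalization Zm00001d017275, at 5.15 on the log2 scale, stood above its 4.62. Its level was 135, 63.7, 128 and 48.7 FPKM in SLB replicates 1 to 4 and 0.617, 4.34, 2.09 and 1.65 FPKM in control replicates 1 to 4. SLB replicates 1 and 3 were above the other 2, and the lowest SLB value was 11.2 times the highest control value. It rose by 4.90 on the log2 scale (SE 0.42, limma adjusted p = 3.93e-06), with a ratio of means of 43.1. With a pseudocount of 0.1 the log2 fold change was 5.52.

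Zm00001d017274 was the most even copy within the SLB group. It stood at 90.9, 117, 101 and 103 FPKM in SLB replicates 1 to 4, with a coefficient of variation of 10.5%. In control replicates 1 to 4 it stood at 6.10, 8.64, 11.02 and 7.05 FPKM. The groups were far apart, with the lowest SLB value 8.25 times the highest control value. Its rise of 3.52 on the log2 scale (SE 0.17, limma adjusted p = 1.78e-07) was close to the 3.53 of Zm00001d017275, the copy with the next identifier number.

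Zm00001d051161 held the second highest mean level in controls. It was at 7.75, 17.7, 9.43 and 7.30 FPKM in control replicates 1 to 4 and at 63.0, 46.8, 75.5 and 44.6 FPKM in SLB replicates 1 to 4. The groups did not overlap, and the lowest SLB value was 2.51 times the highest control value. Its rise of 2.39 on the log2 scale (SE 0.28, limma adjusted p = 2.89e-05) was the lowest among the 6 copies that rose with the deposited values. With equal totals it was 3.58, as for Zm00001d003015.

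The pair Zm00001d003015 and Zm00001d003016 have consecutive identifier numbers and differed in their values. Zm00001d003015 was at 12.3, 10.7, 14.5 and 9.52 FPKM in SLB replicates 1 to 4 and at 0.442, 2.18, 1.45 and 0.387 FPKM in control replicates 1 to 4. It rose by 2.66 on the log2 scale (SE 0.28, limma adjusted p = 1.41e-05), without overlap between the groups, and the ratio of means was 10.5. At these low control levels the pseudocount weighs on the fold, which was 3.57 on the log2 scale with a pseudocount of 0.1. Zm00001d003016 was at 1.23, 1.28, 0.879 and 1.28 FPKM in SLB replicates 1 to 4 and at 0.939, 1.48, 1.75 and 0.769 FPKM in control replicates 1 to 4. These values overlapped, and the fold change was -0.02 on the log2 scale (SE 0.16, limma adjusted p = 0.896). That value lies 0.72 below the median of all tested genes. The copy stayed below that median under each scaling, while its call turned with the scaling. Its log2 fold change was -0.47 after median-ratio scaling (limma adjusted p = 0.0164), -0.58 after quantile normalization (limma adjusted p = 0.0033) and 0.67 with equal totals (limma adjusted p = 0.00669). Within a library the ratio of Zm00001d003015 to Zm00001d003016, which does not depend on scaling by a factor, was 7.45 to 16.5 in SLB libraries and 0.471 to 1.48 in controls. The copy that was the lower of the pair in 3 of the 4 controls was the higher in all 4 SLB libraries.

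Zm00001d033286 was listed at 0 in all 8 libraries, as were 13397 genes of the table. It was not tested. Without depth, the level that a listed 0 allows is unknown.

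**Figure D2:**
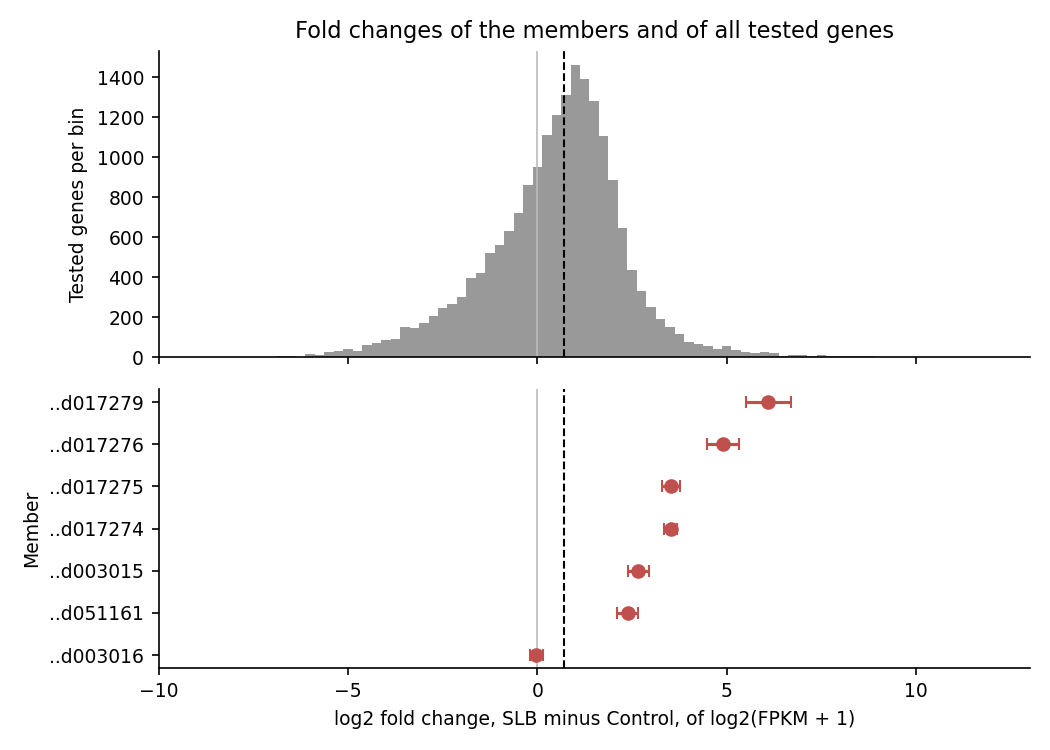
The upper panel counts tested genes per bin of log2 fold change, SLB minus Control, and the lower panel gives the 7 tested copies with bars of 1 SE. The dashed line is the median of all tested genes, 0.69; 6 copies lie to its right, from 2.39 to 6.10, and Zm00001d003016 lies to its left.

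The order of the copies was the same at the top in every library and changed below it. In all 4 SLB libraries Zm00001d017275 was followed by Zm00001d017279, and the lowest value of the former, 846 FPKM, exceeded the highest of the latter, 519 FPKM. The next places, Zm00001d017274 and Zm00001d017276, overlapped: the second was higher in SLB replicates 1 and 3 and the first in replicates 2 and 4. Zm00001d051161 came next in each SLB library, and Zm00001d003015 and Zm00001d003016 were the lowest of the copies above 0. In controls Zm00001d051161 was second in 3 libraries and Zm00001d017274 in replicate 3. Zm00001d051161 was above Zm00001d017279 in every control library, though by little in replicate 2, at 17.7 against 17.0 FPKM. The place of Zm00001d017274 relative to these copies differed between control libraries and is not resolved. Copies at 10 FPKM or more numbered 5 or 6 in SLB libraries and 1 to 3 in controls.

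The makeup of the family sum also differed. Shares within a library do not depend on a scaling factor, and no test was made on them. They do change with quantile normalization, which is not a factor. With it the share of Zm00001d017275 was 8.34 percentage points higher in SLB libraries, a turn from the -13.4 points of the deposited values. The share of Zm00001d017279 was then higher by 7.72 points in place of 16.4, and that of Zm00001d017276 by 0.118 points in place of 3.46. The shares below are from the deposited values. Zm00001d017275 held 64.6% ± 2.79 (SD, n = 4) of the family sum in the SLB group against 78% ± 3.48 (SD, n = 4) in controls, without overlap. Zm00001d017279 held 20.4% ± 3.48 (SD, n = 4) in the SLB group against 3.97% ± 3.32 (SD, n = 4) in controls, also without overlap. Without control replicate 2, its control share was 2.4% ± 1.33 (SD, n = 3). The second most expressed copy in SLB leaves was thus a minor one in controls.

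Zm00001d017276 held 5.03% ± 1.34 (SD, n = 4) in the SLB group against 1.57% ± 0.688 (SD, n = 4) in controls, again without overlap. The share of Zm00001d051161 was lower in SLB libraries, at 3.22% ± 0.252 (SD, n = 4) against 8.01% ± 0.729 (SD, n = 4) in controls, although its level was higher there. The shares of Zm00001d017274, 6.11% ± 1.94 and 6.7% ± 2.02 (SD, n = 4), overlapped between SLB and control libraries. So did those of Zm00001d003015, 0.666% ± 0.0654 and 0.789% ± 0.433 (SD, n = 4). The share of Zm00001d003016 was 0.0704% ± 0.0271 in the SLB group against 0.979% ± 0.321 in controls (SD, n = 4).

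**Figure D3:**
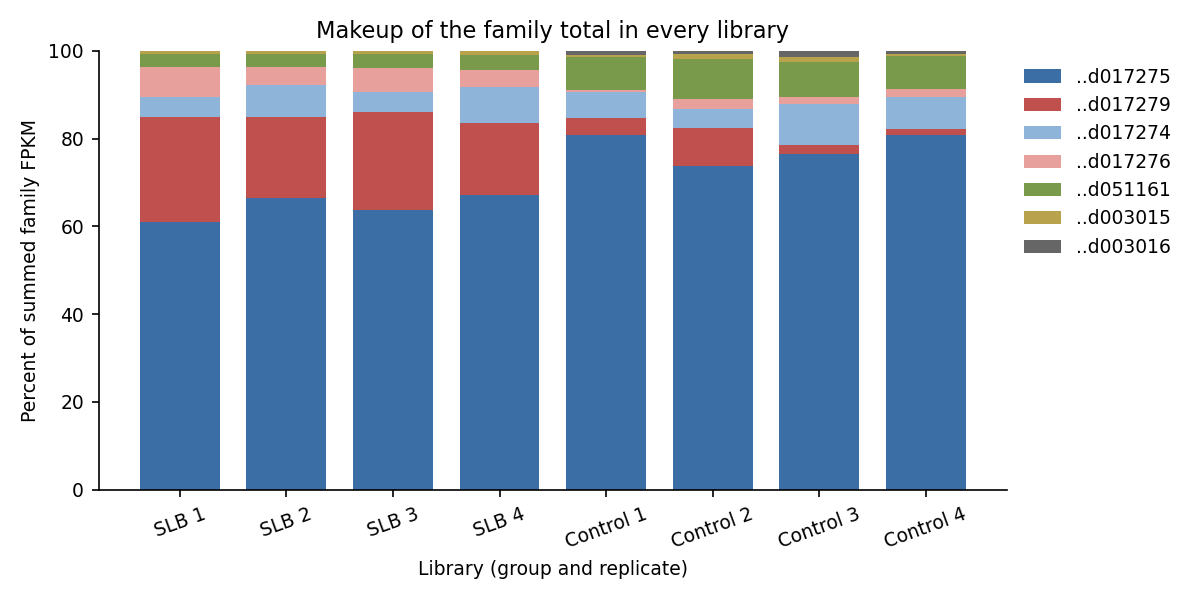
Stacked bars give the percent of the summed family FPKM held by each copy in each library. Zm00001d017275 is the largest part of every bar, and Zm00001d017279 takes 16.4% to 24% in SLB libraries against 1.27% to 8.68% in controls.

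Ratios between copies come from the same deposited values as the shares, so they restate the shares library by library and add no separate evidence. Zm00001d017275 exceeded Zm00001d017279 by a factor of 2.55 to 4.09 in SLB libraries and 8.49 to 63.5 in controls. It exceeded Zm00001d017274 by 8.24 to 14.5 in SLB libraries and 8.36 to 16.7 in controls, ranges that overlap. Against Zm00001d051161 the factor was 19 to 22.6 in SLB libraries and 8.12 to 10.8 in controls. How fragments that match more than 1 copy were counted is not given in the sources used here, so the division of signal among similar copies is uncertain.

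Of the difference between the group means of the family sum, 1664 FPKM, Zm00001d017275 made up 63.1% and Zm00001d017279 22.2%. Zm00001d017274 and Zm00001d017276 made up 5.7% and 5.5%, and Zm00001d051161 2.82%. The 4 copies from Zm00001d017274 to Zm00001d017279 together held 96% ± 0.31 (SD, n = 4) of the family sum in the SLB group against 90.2% ± 1.11 (SD, n = 4) in controls. Without Zm00001d017275, the remaining copies summed to 643 ± 202 FPKM (SD, n = 4) in the SLB group against 29.5 ± 15.2 FPKM (SD, n = 4) in controls, a ratio of 21.8.

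The size of the family shift depended on the scaling between libraries. As a share of each library's summed FPKM, the family held 0.245% ± 0.0601 (SD, n = 4) in the SLB group against 0.00749% ± 0.003 (SD, n = 4) in controls, a ratio of 32.8. With median-ratio scaling, which centres the typical gene, the family sum was 1351 ± 383 in the SLB group against 172 ± 63.8 in controls (SD, n = 4), a ratio of 7.84. Quantile normalization gave a ratio of 32.1, and equal totals without the 1000 most abundant genes gave 11.6. The SLB libraries lay above the controls under each of these scalings. Relative to the median of all tested genes under the same scaling, Zm00001d017279 stood 5.34 to 6.10 higher and Zm00001d017276 4.20 to 4.41 higher on the log2 scale. On the same footing Zm00001d017274 stood 2.71 to 3.09 higher and Zm00001d051161 1.57 to 1.90 higher. Zm00001d003015 stood 1.88 to 2.07 higher, while Zm00001d003016 stood lower under each scaling, at -1.02 to -0.49 from the median. Zm00001d017275 stood 2.68 to 3.11 higher under the deposited values and the scalings by a factor, and 4.94 higher after quantile normalization.

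**Figure D4:**
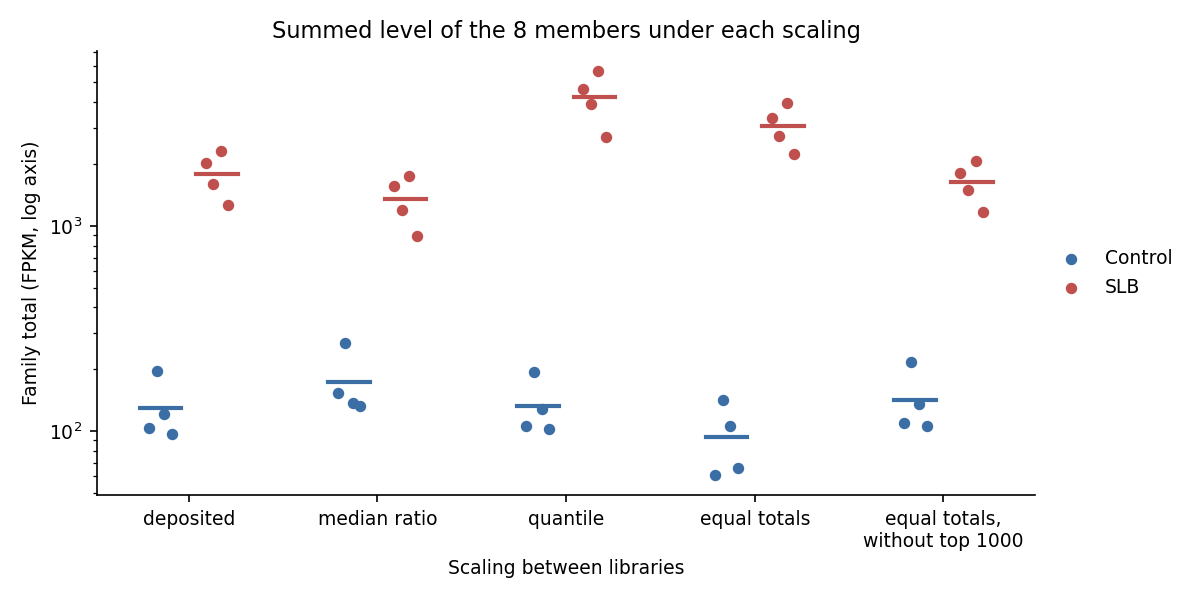
Summed FPKM of the 8 copies in each library on a log axis, under the deposited values and 4 other scalings, with a bar at each group mean. The ratio of SLB to control means runs from 7.84 with median-ratio scaling to 32.8 with equal totals, and the groups do not meet in any of the 5.

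Within each group the copies did not all follow the same libraries. SLB replicates 1 and 3 were both above replicates 2 and 4 for Zm00001d017275, Zm00001d017276, Zm00001d017279, Zm00001d003015 and Zm00001d051161, an arrangement seen in 19.2% of all tested genes. Zm00001d017274 went otherwise, with its highest SLB value in replicate 2 and its lowest in replicate 1. Among controls, replicate 2 was the highest for 5 of the 7 copies above 0, and 14.1% of all tested genes were highest there. The exceptions were Zm00001d017274 and Zm00001d003016, both highest in control replicate 3. The coefficient of variation was higher in controls than in SLB libraries for all 7 of these copies, as for 68.6% of tested genes. Without control replicate 2 it was higher in controls for 5 of the 7, and for 67.7% of tested genes. For Zm00001d017279 it was 118% in controls, 54.1% without control replicate 2, and 39.8% in SLB libraries. For Zm00001d017275 it was 30.6% in controls, 8.54% without control replicate 2, and 22.9% in SLB libraries. For Zm00001d051161 it was 46.2%, 13.7% and 25.4% in the same order. These arrangements were noticed in the data and are given as a description.

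**Figure D5:**
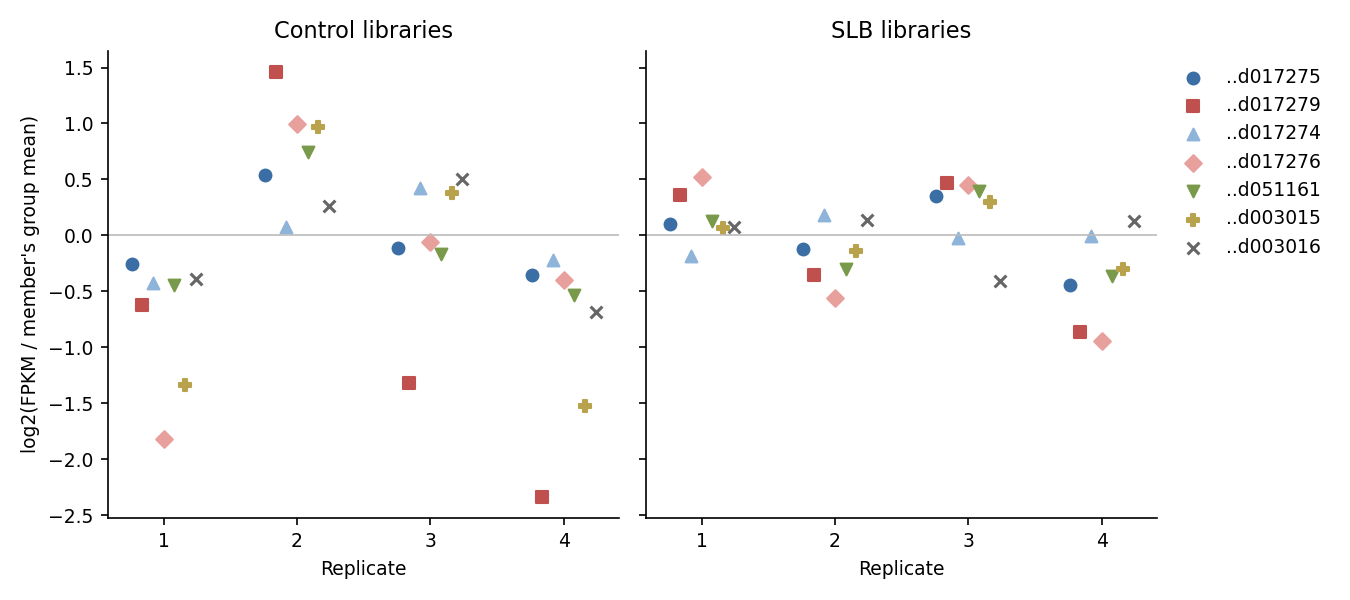
Each copy's FPKM in a library over its own group mean, on a log2 scale, for controls on the left and SLB libraries on the right, with 1 marker per copy. Control replicate 2 lies high for most copies, and in the SLB panel replicates 1 and 3 lie high for 5 copies while Zm00001d017274 stays near 0.

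The genes whose pattern was most like the family sum were sought by Pearson's r of log2(FPKM + 1) over the 8 libraries, which is high for any gene that separates the groups. Of 19400 genes outside the family, 5660 had an r of at least 0.95 and 204 of at least 0.99. The highest was Zm00001d053619 (r = 0.999), at 101, 61.5, 110 and 43.5 FPKM in SLB replicates 1 to 4 and listed at 0, 2.21, 0.528 and 0 FPKM in control replicates 1 to 4. It reached the filter with the help of the SLB libraries. Its ranking of SLB replicates, with 3 highest and 4 lowest, is that of the family sum. The gene was picked for its likeness to that sum, so nothing is read from this match. The next was Zm00001d047493 (r = 0.999), at 14.6 ± 1.48 FPKM in the SLB group against 4.22 ± 0.756 FPKM in controls (SD, n = 4). It was at 16.1, 13.6, 15.6 and 13.1 FPKM in SLB replicates 1 to 4, so replicate 1 was its highest. The files do not pair these identifiers with names.

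The identifiers beside the copies were described by number, taking identifier numbers to follow gene order, which was not checked. Within 5 numbers of a copy the table lists 36 other identifiers, of which 15 were at 0 in all libraries and 16 were tested. Of the 16, 11 rose and 3 fell in limma, where 56.0% and 24.6% of all tested genes did, so nothing is read from these counts. Around Zm00001d051161 all 4 tested neighbours rose, by 3.24 to 5.96 on the log2 scale, against 2.39 for the copy itself. Rises of at least 8-fold were called for 5.46% of all tested genes. Some of the rising neighbours, here and below, had control means under 1 FPKM. These reached the filter with the help of the SLB libraries. Around the stretch from Zm00001d017274 to Zm00001d017279, 3 tested neighbours rose by 3.15 to 5.36 and 1 fell, with a log2 fold change of -0.88. Around Zm00001d033286, 2 of 5 tested neighbours rose by 0.89 to 1.84, 2 fell, with log2 fold changes of -3.08 and -3.69, and 1 did not pass the threshold. Around Zm00001d003015 and Zm00001d003016, 2 of 3 rose by 1.07 to 1.82 and 1 did not pass the threshold. The identifiers Zm00001d017277 and Zm00001d017278, inside that stretch, were listed at 0 in all libraries.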

How the data were processed

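Stranded mRNA libraries were made from total RNA of 8 leaf samples, per the labels' protocols. FPKM were computed by the authors and deposited as 1 table, with a column for each library. Trimmomatic 0.32 and the build B73 RefGen_v4 are named in the submitters' processing notes; for the aligner, the quantifier and any scaling step, the sources used here give nothing. Columns were matched to libraries by name, and 0 columns were left unused.

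Genes that reached 1 FPKM in 4 or more of the 8 libraries were fitted with limma 3.58.1 in R 4.3.3 on log2(FPKM + 1), with group as the only term, an empirical Bayes trend and two-sided tests. P-values were adjusted by Benjamini-Hochberg over all 19407 genes, at a threshold of 0.05. The code was tested on simulated data, where it recovered 52% of 2-fold and 88% of 4-fold changes. False calls made up 6.67% of all calls there. Far fewer genes were changed in the simulation than were called in the data, so these rates need not hold for the data. Sums, shares and ratios were computed with Python 3.11.15 and pandas 2.3.3. The number of mapped fragments is unknown: over 28 library pairs low values (0.05 to 0.4 FPKM) were compared as log2 ratios in bins of 0.02, and the fullest bin held 1.23% to 2.86% of genes, so no step of 1 read was recovered and no counting interval can be given.

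The spread without control replicate 2 was added after the data were seen. The members and lists were chosen with earlier results of these data known. Named genes are all 8 members and the 2 other tested genes most correlated with their sum; the neighbouring identifiers that are named were chosen after their values were seen. None of the table's identifiers matched the reference gene table of 49888 entries, so lists for the phenylpropanoid pathway, leaf mesophyll, bundle sheath and vascular tissue had 0 members, and no sequence or position is given. Whether each library stands for a plant of its own is not in the labels, so the p-values reflect a spread that may be technical.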

Additional observations from a re-analysis of the deposited data

Results flagged for a closer look

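Among 32 groups of 4 values checked (levels and shares of the 7 copies above 0, the family sum and its share of all FPKM), a single library stood far from the other 3 in 1 group. Chance gives this in about 1 of 20 groups, so 1 of 32 is not more than chance gives. Levels and shares of a copy are also not independent. Zm00001d003016 was at 0.879 FPKM in SLB replicate 3, while the other SLB libraries were at 1.23 to 1.28 FPKM.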

How the results depend on the processing

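The 6 members that rose did so in limma under all 19 alternatives, and with equal totals Zm00001d003016 made a count of 7. Members falling numbered 1 with median-ratio scaling and with quantile normalization, in both cases Zm00001d003016, and 0 otherwise; that gene, at 0.67 with equal totals, could not be fitted with the filter at 5 FPKM. The log2 ratio of the family sum was 3.80, and it was 2.97 with median-ratio scaling, 5.004 with quantile normalization and 5.03 with equal totals. Dividing each library by a factor shifts the sum by construction. Under quantile normalization Zm00001d017275 went from 3.53 to 5.15, while Zm00001d017274, Zm00001d017276 and Zm00001d051161 went to 3.29, 4.62 and 2.05; the cause was not tested. Leaving out 1 library gave 3.65 to 4.07 for that ratio, 4.88 to 5.30 for the log2 ratio of the family's share of summed FPKM, and 6 rising and 0 falling members each time. After quantile normalization the share of Zm00001d017275 differed by 8.34 percentage points between the groups, against -13.4 as deposited. Deviations from the group means of same-numbered SLB and control libraries had correlations of 0.0485, 0.0152, 0.126 and 0.112. The control that matched best had the same number for SLB replicates 2, 3 and 4. The SLB library that matched best had the same number for control replicates 3 and 4. With correlations this low the numbers were not taken as pairs in the main fit, and pairing is not settled. With the replicate block 6 members rose and 0 fell. Depth is unknown, so calls at low FPKM, such as Zm00001d003016, carry a counting error that the values do not show.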

Other observations

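The ratio of Zm00001d017279 to Zm00001d017276, the copies with the widest changes, was 3.58, 4.62, 4.06 and 4.25 in SLB replicates 1 to 4. In control replicates 1 to 4 it was 6.48, 3.91, 1.19 and 0.74. The SLB range lay inside the control range, and in control replicate 4 Zm00001d017276 was the higher copy. Both copies were below 5 FPKM in 3 of the 4 controls.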
